A study of Mus musculus with 18 samples.

Results

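The AP-1 family was taken here as 9 genes, Jun, Junb, Jund, Fos, Fosb, Fosl2, Batf, Batf3 and Atf3. They were picked by name from the 35865 singly named genes of the RNA-seq table of CHD8-deficient regulatory T cells (Tregs). Their relatives Fosl1, Batf2 and Jdp2 are not among them and are treated in a separate list below. CHD8 is a chromatin remodeling enzyme that uses ATP to move nucleosomes, and Tregs are the CD4+ Foxp3+ T cells that restrain other immune cells. The comparison asked how transcripts of this family differed between CHD8-deficient and control Tregs. Chd8-/- Tregs came from CHD8Flox/FloxFoxp3YFP-Cre mice, in which a YFP and Cre fusion knocked into the X-linked Foxp3 gene limits deletion to cells that express Foxp3. The control mice, named WT in the study, carry the label CHD8flox/floxFoxp3YFP-Cre/+, so by label they too have floxed alleles and Cre, while the study's text describes wild-type littermates. All samples carry the label of a poly IC injection, and mice were 5 to 7 weeks old. The study reports that Chd8-/- mice develop fatal inflammation and die within this age range. An effect of CHD8 loss within Tregs therefore cannot be told apart from one of the inflamed host. YFP+ cells were sorted from splenic CD4+ T cells, and each genotype had 2 RNA libraries (WT 1, WT 2, Chd8-/- 1 and Chd8-/- 2). The study describes a male and a female mouse for each genotype, while the labels name no animal or sex, and the p-values measure the spread between these libraries.

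AP-1 factors are basic leucine zipper (bZIP) proteins that bind DNA as pairs. Jun proteins pair with each other or with Fos proteins, which cannot pair with themselves, while Batf and Batf3 pair with Jun proteins and bind composite sites with IRF4 or IRF8. T cell receptor signals raise Jun and Fos through MAP kinases within minutes, which makes these transcripts sensitive to how cells were handled. In Tregs, Batf is known for its role in effector and tissue Tregs, and AP-1 pairs bind with NFAT at cytokine genes such as Il2, which Foxp3 represses.

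The libraries held an estimated 9239603 to 13198475 reads on genes. Chd8, the deleted gene, had 14.9 and 11.4 TPM (the unit of transcript level, scaled to gene length and to the size of the library) in Chd8-/- Tregs and 24.7 and 27.6 TPM in WT cells (log2 fold change -0.95, SE 0.29, unadjusted p = 0.0276 in limma, adjusted p = 0.455). Neither Chd8-/- value reached a WT value, and Chd8 RNA was still counted in them. The Treg label held, since Foxp3 was between 203 and 232 TPM in all 4 libraries and all 8 Treg and T cell markers were detected. The library Chd8-/- 2 stood apart. It held 1360 TPM of the myeloid gene Lyz2 against 20 TPM in Chd8-/- 1 and 77.1 and 60.5 TPM in the WT libraries, and its log2 levels correlated less with every other library (Pearson's r across genes 0.84 to 0.86) than the other 3 did among themselves (0.90 to 0.92). The member median and the log2 fold changes of Batf, Junb and Jund are therefore also given without it. For the other tested members, ranges with 1 library left out are given. Other fold changes use all 4 libraries unless stated. Xist RNA was found in all 4 libraries, and Ddx3y, Eif2s3y, Kdm5d and Uty were at 0 in all of them, the pattern of female cells, which goes against the sexes the study describes.

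Fold changes below are differences of mean log2(TPM + 1), Chd8-/- minus WT, which understates the change of genes at low levels. Of the 9 members, 8 had at least 1 TPM in 2 or more libraries and entered the limma test, which covered 15240 genes, and Fosb did not. No gene had an adjusted p under 0.05 (0% of those tested), members included, and at an unadjusted p under 0.05 the Chd8-/- level was above WT for 595 genes (3.9%) and below it for 960 (6.3%). An exact permutation test of 2 libraries against 2 cannot go below p = 0.333. All differences described here are therefore values and not calls. In bulk RNA, more cells of a type and more RNA per cell cannot be told apart.

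Jun and Batf were the members whose values separated the genotypes. The Chd8-/- values were both above the WT values for these 2 of 8 tested members, a pattern seen in 14.8% of all genes, and for no member were both under WT, against 27.8% of all genes. The same 2 of 8 members had a log2 fold change of at least 1, against 5.12% of all genes, and none had -1 or less, against 11.6% of all genes. After quantile normalization, 1146 genes of the whole table had a log2 fold change of at least 1 and 1231 had -1 or less, compared with 781 and 1768 without it, while Jun and Batf remained the members past 1. The median log2 fold change was 0.21 over the 8 members and -0.15 over all genes tested. Without Chd8-/- 2 the median of the members was -0.39, so its direction rests on that library, whereas Jun and Batf kept theirs.

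**Figure D1:**
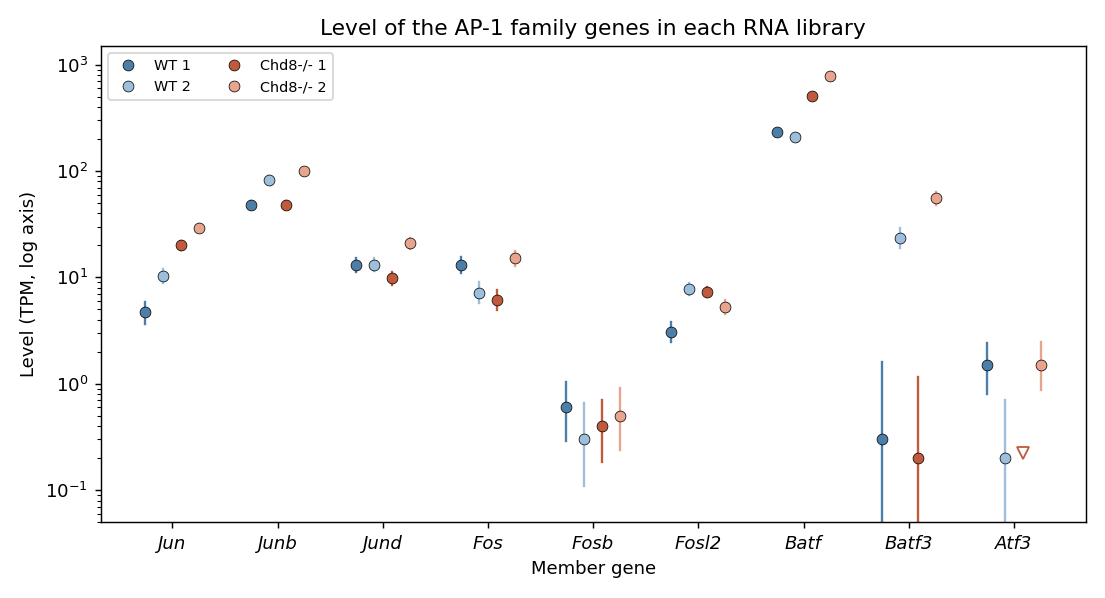
Level of each of the 9 member genes (x axis) in TPM on a log axis in the 4 RNA libraries. Points are single libraries, vertical lines are exact Poisson 95% intervals of the estimated read counts (counting error only, cut at the lower edge of the plot), and the open triangle is the level of 3 reads for Atf3 in Chd8-/- 1, where it was at 0. Batf lies highest in every library, and the Chd8-/- points lie above the WT points for Jun and Batf.

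Promoter sequence is shown for Jun and Batf, the members that stood higher in Chd8-/- Tregs, and for Fos, whose level did not separate the genotypes. Each stretch is the 120 bases before the RefSeq transcription start (GRCm38.p6), read 5′ to 3′ on the strand of the gene. Capitals mark matches to TGACATCA, an octamer bound by Jun and ATF2 pairs, or to TGACG, the half-site of the cyclic AMP response element, each searched on both strands. The stretches lie at chr4:95052223-95052342 on the minus strand for Jun, chr12:85686600-85686719 on the plus strand for Batf and chr12:85473770-85473889 on the plus strand for Fos.
Jun: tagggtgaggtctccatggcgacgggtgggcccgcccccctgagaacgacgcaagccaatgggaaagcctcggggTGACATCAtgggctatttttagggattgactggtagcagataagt
Batf: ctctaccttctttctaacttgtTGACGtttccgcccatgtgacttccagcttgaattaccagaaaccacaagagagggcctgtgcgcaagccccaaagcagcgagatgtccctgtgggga
Fos: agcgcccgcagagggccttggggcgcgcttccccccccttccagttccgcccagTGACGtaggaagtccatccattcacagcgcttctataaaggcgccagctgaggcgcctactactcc

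The Jun promoter held TGACATCA from base -45 to -38 relative to the start, and no other member did. This octamer occurred in 3.62% of the 32851 promoter windows of the table (250 bases before to 50 after each start). The canonical AP-1 site TGANTCA was in none of the 9 member windows and in 7.81% of all windows, and the full element TGACGTCA was likewise in none of the 9 and in 1.79% of all. The half-site TGACG, added to the search after the first results were seen, was in the windows of Junb, Fos, Fosb, Batf and Atf3, 5 of 9 members, against 20.8% of all windows. The median GC content of all windows was 52.67%. Among members with the half-site, GC content was 65.3% for Junb, 58.7% for Fos, 68.3% for Fosb, 64.7% for Atf3 and 49.7% for Batf. Of the others, Fosl2 (64.7%), Batf3 (75.7%) and Jun also lay above the median, and Jund (46.7%) lay under it. The part of GC content in the share of members with the half-site was not tested. The half-site lay at -98 to -94 for Batf, at -129 to -125 and -66 to -62 for Fos, at -106 to -102 for Junb and at -60 to -56 for Fosb, and on the opposite strand at -7 to -3 for Atf3. The Jund, Fosl2 and Batf3 windows held none of the 4 motifs. Of the 2 members that stood higher in Chd8-/- Tregs, Batf held the half-site and Jun did not.

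Batf, which pairs with Jun proteins and binds with IRF4, was the most abundant member in every library. Its level was 502 and 785 TPM in the Chd8-/- libraries and 231 and 207 TPM in the WT libraries. The genotypes did not overlap, the lower Chd8-/- value being 2.17 times the higher WT value, and the WT libraries lay close together. The means were 644 ± 200 TPM in Chd8-/- and 219 ± 17 TPM in WT Tregs (SD, n = 2 libraries each), a ratio of 2.94. The log2 fold change was 1.52 (SE 0.27, unadjusted p = 0.0038, adjusted p = 0.402 in limma). It was 1.20 without Chd8-/- 2 and between 1.44 and 1.84 with each of the others left out. By mean level Batf ranked 272 of 15240 genes, and among the 1541 genes with a mean of at least 100 TPM its log2 fold change ranked 17. Estimated reads behind these values were 3064 and 3741 in the Chd8-/- libraries and 1019 and 968 in the WT libraries, so counting error was small next to the difference between genotypes. The gene lies at chr12:85686720-85709087 (GRCm38, plus strand) with 3 exons.

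Jun, the prototype of the Jun proteins and a target of the JNK kinases, had the highest log2 fold change among the members with all 4 libraries. Batf was higher than Jun with a pseudocount of 5 TPM (1.50 against 1.26) and without WT 1 (1.6 against 1.15), and Batf3 was higher than both without Chd8-/- 1 or WT 2. Jun was at 20.1 and 29.3 TPM in the Chd8-/- libraries, compared with 4.7 and 10.4 TPM in the WT libraries. The groups did not overlap, but the WT libraries differed 2.21-fold from each other, and the lower Chd8-/- value was 1.93 times the higher WT value. The log2 fold change was 1.65 (SE 0.48, unadjusted p = 0.0227, adjusted p = 0.446 in limma). Leaving out 1 library at a time gave 1.15 to 2.15, with the lowest value without WT 1. The estimated reads were 432 and 492 against 73 and 171. Jun is a single-exon gene at chr4:95049036-95052222 (minus strand).

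Junb and Jund, the other Jun proteins, differed more within a genotype than between genotypes. Junb, which in T cells often pairs with Batf, was at 48.4 and 101 TPM in the Chd8-/- libraries, compared with 48.0 and 83.1 TPM in the WT libraries (log2 fold change 0.15, SE 0.48). The first library of each genotype was low and the second high, and the groups overlapped. Jund, often described as the Jun protein of resting cells, was at 9.8 and 20.9 TPM in the Chd8-/- libraries, compared with 13.2 TPM in both WT libraries (log2 fold change 0.12, SE 0.45). The Chd8-/- values lay on either side of WT. Without Chd8-/- 2, the log2 fold changes were -0.38 for Junb and -0.39 for Jund. Both genes have a single exon and lie on chromosome 8, at chr8:84976909-84978748 for Junb and chr8:70697739-70700616 for Jund.

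Fos, the immediate early partner of Jun, was at 6.2 and 15.1 TPM in the Chd8-/- libraries, compared with 13.1 and 7.2 TPM in the WT libraries. Each genotype had a low and a high library, and the groups overlapped fully (log2 fold change 0.00, SE 0.57). The difference between Chd8-/- libraries, an estimated 88 and 168 reads, exceeded counting error. Fosl2, a Fos protein also called Fra-2, was at 7.3 and 5.3 TPM in the Chd8-/- libraries, compared with 3.1 and 7.8 TPM in the WT libraries (log2 fold change 0.27, SE 0.53). Its values overlapped, and it was the tested member that was lower in Chd8-/- 2 than in Chd8-/- 1. Fosb was at 0.4 and 0.5 TPM against 0.6 and 0.3 TPM, 6 to 11 estimated reads a library, and a difference was not detectable at this depth. Fos lies at chr12:85473890-85477274, Fosl2 at chr5:32136472-32157840 and Fosb at chr7:19302696-19310118.

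Batf3, the relative of Batf best known from dendritic cells, varied the most within genotypes. It was at 0.2 and 55.5 TPM in the Chd8-/- libraries, compared with 0.3 and 23.7 TPM in the WT libraries. In each genotype the first library had about 1 read and the second library 208 or 87 reads. The fitted log2 fold change was 0.54 with an SE of 2.40, and leaving out 1 library at a time gave -2.24 to 3.32, so no direction can be read. Its pooled SD within genotypes was 3.50 on the log2 scale, compared with a median of 0.37 over all genes, and 20 of 15240 genes had one as high. It was among 9 genes (0.059% of those tested) that were at least 3 log2 units higher in the second library of both genotypes. The opposite pattern, at least 3 log2 units higher in the first library of both, was seen in 17 genes (0.11%). Of 6 genes of dendritic cells, chosen after these values were seen, Flt3 alone was higher in WT 2 than in WT 1, at 2.0 and 0.7 TPM. Xcr1 and Clec9a, which mark the dendritic cells that depend on Batf3, were at 0.1 and 0.5 TPM in WT 2 and were listed at 0 in Chd8-/- 2. Neither was above 1.0 TPM in any library, which is near the floor. Itgax was at 12 TPM and H2-Aa at 604 TPM in Chd8-/- 2, against 1.1 and 62.5 TPM in WT 2. The part of dendritic cells in the Batf3 values was not tested.

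Atf3, a stress-induced bZIP factor, was near the limit of detection. It was at 0 and 1.5 TPM in the Chd8-/- libraries, compared with 1.5 and 0.2 TPM in the WT libraries, from 0, 16, 14 and 2 estimated reads. The 0 in Chd8-/- 1 allows a level of up to 0.225 TPM, that of 3 reads, counting error only. The groups overlapped, and the log2 fold change of -0.13 (SE 0.71) became 0.20 after quantile normalization and 0.02 with the median of all genes set to 0. Atf3 and Batf3 are neighbors on chromosome 1, 61.4 kb apart, at chr1:191170296-191183333 and chr1:191098414-191108943. Fos and Batf lie 209 kb apart on chromosome 12. Batf separated the genotypes and Fos did not. Batf3 and Atf3 were both higher in Chd8-/- 2 than in Chd8-/- 1, while in WT 2 Batf3 was the higher and Atf3, at 2 reads, the lower of the WT values.

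**Figure D2:**
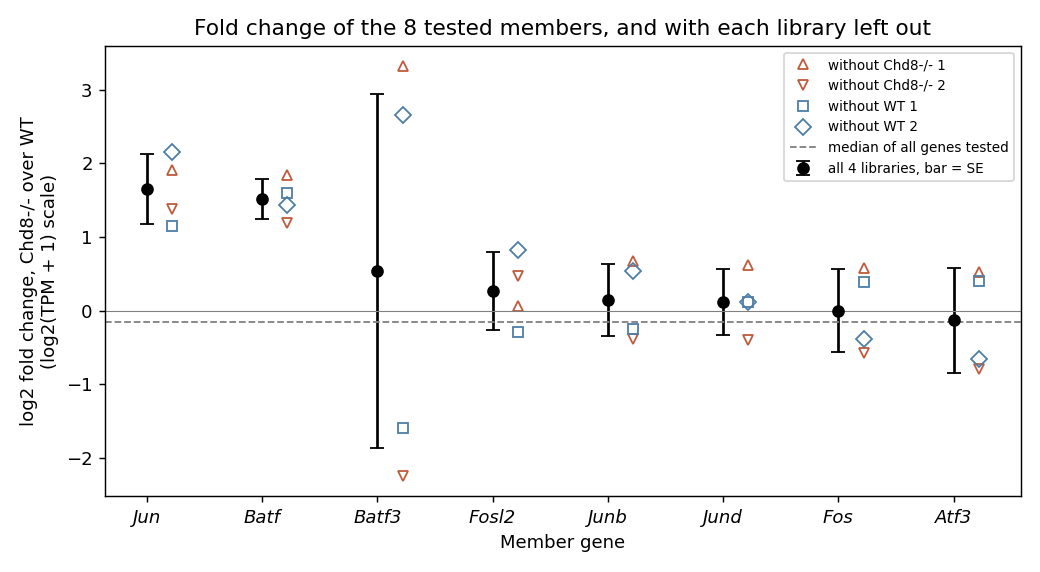
Log2 fold change (y axis, Chd8-/- over WT on the log2(TPM + 1) scale) of the 8 tested members (x axis). Black points use all 4 libraries with bars of 1 SE, open symbols leave out 1 library each, and the dashed line is the median of all genes tested (-0.15). Every symbol of Jun and Batf lies above 1, and those of the other members lie on both sides of 0.

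Batf took a larger share of the family in Chd8-/- Tregs. Summed over the 9 members, transcripts came to 595 and 1014 TPM in the Chd8-/- libraries and to 316 and 353 TPM in the WT libraries. Batf made up 84.5% and 77.4% of this sum in Chd8-/- and 73.2% and 58.7% in WT Tregs, and Junb 8.14% and 9.98% compared with 15.2% and 23.5%. Jun, Junb and Jund together were at 78.3 and 151 TPM against 65.9 and 107 TPM, which overlap, so that Batf had 6.42 and 5.18 TPM per TPM of Jun proteins in Chd8-/- and 3.51 and 1.94 in WT Tregs. Within the Jun proteins, Jun itself was 25.7% and 19.4% in Chd8-/- and 7.13% and 9.75% in WT Tregs. Neither ratio overlapped between genotypes, but each has Batf or Jun on top, the members whose values separated the genotypes. The ratios are therefore no further evidence. The Junb share is likewise taken of a sum that is mostly Batf, and the TPM of Junb itself overlapped between genotypes. Fos, Fosb and Fosl2 summed to 13.9 and 20.9 TPM against 16.8 and 15.3 TPM, with both WT values between the Chd8-/- values. These sums describe RNA and not protein.

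**Figure D3:**
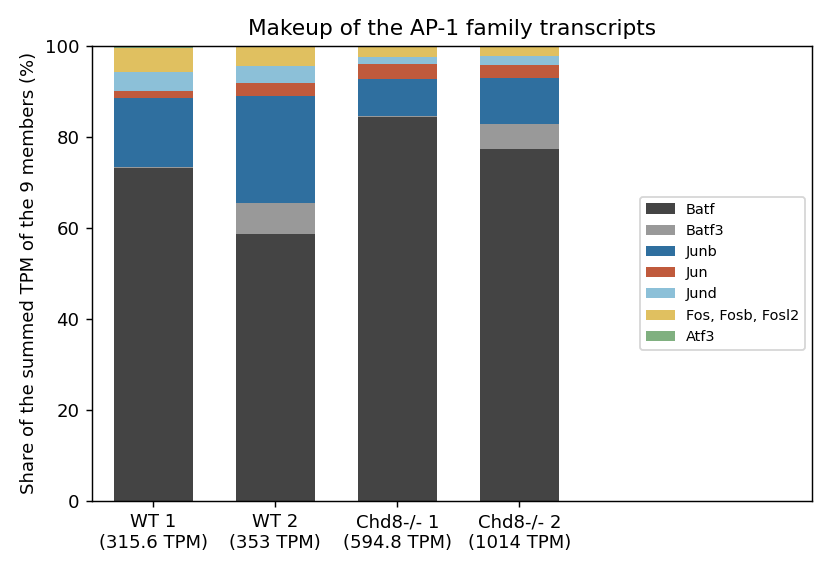
Share of each member (stacked, in percent, y axis) in the summed TPM of the 9 members for the 4 RNA libraries (x axis, with the sum under each name). Batf fills more of the bar and Junb less in the Chd8-/- libraries.

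Most members differed between libraries of the same genotype. Of the 8 tested members, 7 were higher in Chd8-/- 2 than in Chd8-/- 1, compared with 37.2% of all genes, and 5 were at least 2-fold apart on the log2(TPM + 1) scale, compared with 26.9% of all genes. Between the WT libraries, 4 of 8 were at least 2-fold apart, compared with 14.4% of all genes. Chd8-/- 2 also had the highest summed markers of other cells, though not every marker was highest in it. Its 7 myeloid markers summed to 1484 TPM against 33.2 TPM in Chd8-/- 1 and 144 and 121 TPM in WT, and its 4 erythroid markers summed to 1184 TPM against 8.7, 197 and 217 TPM. The 5 B cell markers summed to 140 TPM against 35.5, 43.8 and 29.7 TPM, with Pax5 at 3.3 TPM, and the 5 CD8 and NK markers to 51.1 TPM against 11.3, 44.4 and 28.4 TPM, with Ncr1 at 0. A few genes carried the largest sums, with Lyz2 at 1360, Hbb-bs at 580 and Hba-a1 at 553 TPM in Chd8-/- 2. Alas2 and Cd79b were lowest in Chd8-/- 2, at 7.5 and 8.9 TPM. Klrb1c was at 0 there, and Adgre1 was at 4.3 TPM, against 9.4 and 4.5 TPM in WT. Chd8-/- 1 had the lowest summed myeloid, erythroid and CD8 or NK markers of the 4 libraries, but not the lowest B cell sum. The myeloid and neutrophil gene S100a8 was not lowest in Chd8-/- 1 either, at 5.3 and 16.5 TPM in the Chd8-/- libraries and at 0 in both WT libraries. The part of other cells in the Batf and Jun values of either Chd8-/- library, and in the other higher values of Chd8-/- 2, was not tested.

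**Figure D4:**
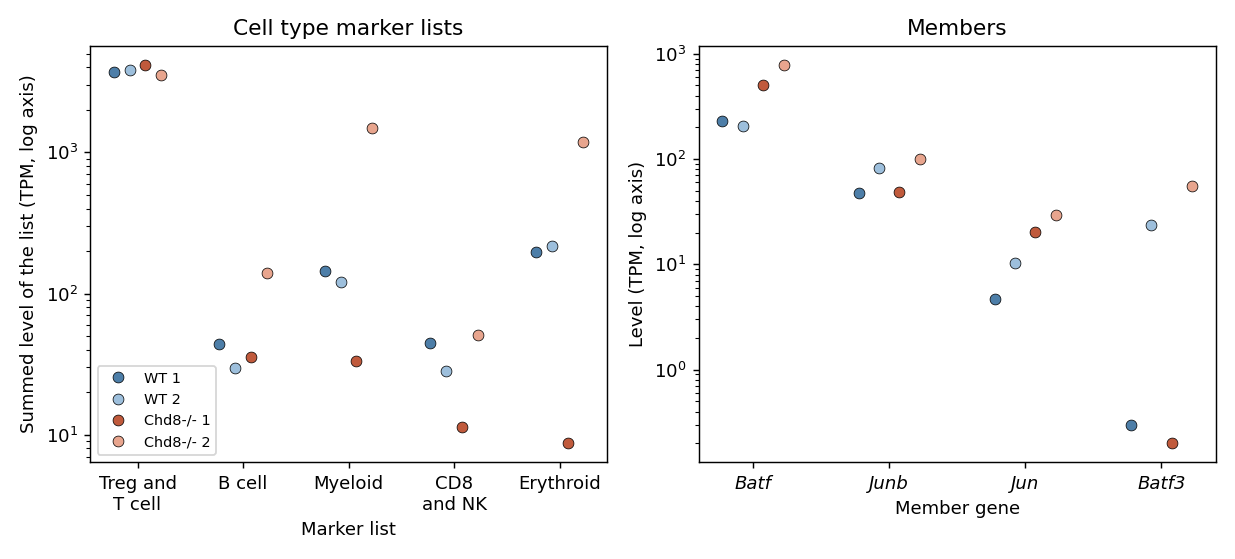
Summed TPM of the marker lists (left, log axis) and TPM of Batf, Junb, Jun and Batf3 (right, log axis) in the 4 RNA libraries. Myeloid and erythroid sums are highest in Chd8-/- 2 and lowest in Chd8-/- 1. Batf and Jun are above WT in both Chd8-/- libraries.

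The genes with the most similar profile were taken from 9635 others with a mean log2(TPM + 1) of at least 3, by Euclidean distance of the centred log2 values over the 4 libraries. For Batf they were 2310022B05Rik, Gm40812 and Pim3 (distance 0.14 to 0.15), and 34 genes lay within 0.5. Pim3, a kinase gene, was at 17.7 and 32.0 TPM in the Chd8-/- libraries, compared with 8.4 and 6.8 TPM in the WT libraries. For Jun they were Mir6910, 9130023H24Rik and Hist3h2a (distance 0.27 to 0.31), and 12 genes lay within 0.5. Hist3h2a, a histone gene, was at 79.2 and 147 TPM against 20.2 and 46.1 TPM. For Fos they were Dexi, 5031439G07Rik and Ccdc28a, and for Jund Srsf9, Brcc3 and Dnajc11, with 107 and 534 genes within 0.5.

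Other bZIP factors leaned lower, like the table as a whole. Of 26 such genes, 22 were tested, and 1 had both Chd8-/- libraries above WT and 6 had both under WT (14.8% and 27.8% of all genes), with a median log2 fold change of -0.16. The list holds Fosl1, Batf2 and Jdp2, relatives that the member sums and shares leave out. Fosl1 was at 3.3 and 0.4 TPM in the Chd8-/- libraries, compared with 9.5 and 2.3 TPM in the WT libraries. Its groups overlapped (log2 fold change -1.26, SE 0.88). Jdp2 had a log2 fold change of -0.31 (SE 0.69), and Batf2 did not enter the test. Bach2, a repressor that competes with AP-1 factors for their sites and favors resting T cells, was at 7.0 and 8.1 TPM in the Chd8-/- libraries, compared with 19.2 and 24.6 TPM in the WT libraries (log2 fold change -1.41, SE 0.32, unadjusted p = 0.0091, adjusted p = 0.408). Its relative Bach1 had a log2 fold change of -1.15. Among 8 DNA-binding partners, Irf4, which binds with Batf, was at 70.8 and 90.6 TPM against 59.4 and 67.3 TPM (log2 fold change 0.34, SE 0.23). Irf8 was at 6.0 and 6.9 TPM against 11.4 and 16.9 TPM (log2 fold change -1.0, SE 0.36). Irf4 stood above and 4 of the 8 partners under WT in both libraries (14.8% and 27.8% of all genes), with a median of -0.23.

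Neither the kinases that activate AP-1 nor its negative regulators included a gene with a log2 fold change of 1 or more in size. Of all genes tested, 5.12% were at 1 or more and 11.6% at -1 or less. Of 24 tested MAP kinase pathway and ternary complex genes, 2 lay above and 10 under WT in both Chd8-/- libraries (14.8% and 27.8% of all genes), with a median of -0.20. Of 16 tested negative regulators, which comprise dual-specificity phosphatases, ubiquitin ligase parts and the RNA-decay factors of the Zfp36 family, 2 lay above and 5 under, near those shares, with a median of -0.09. The median of this list was 0.06 with the median of all genes set to 0.

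Known AP-1 targets of T cells were mixed. Of 20, 12 were tested, and 4 were above and 3 under WT in both libraries (14.8% and 27.8% of all genes). The median was 0.11, or -0.08 without Chd8-/- 1 and 0.43 without Chd8-/- 2. Icos, a costimulatory receptor, was at 254 and 213 TPM against 110 and 110 TPM (log2 fold change 1.07, SE 0.19), and Il4 was at 7.6 and 1.9 TPM against 0 and 0.3 TPM (2.13, SE 0.68). Tnf was at 35.1 and 16.7 TPM against 66.7 and 50.0 TPM (-1.22, SE 0.43), and Gzmb at 11.7 and 3.1 TPM against 35.6 and 27.6 TPM (-2.16, SE 0.63). Il2, which Foxp3 represses, was between 0.2 and 4.3 TPM and did not enter the test.

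The 10 genes linked to Batf in tissue Tregs had the highest median of the lists on the pathway, 0.79, or 0.83 without Chd8-/- 2. Of these genes, 7 lay above and 2 under WT in both Chd8-/- libraries (14.8% and 27.8% of all genes). Itgae, which encodes the integrin CD103, was at 120 and 99.2 TPM against 23.0 and 26.8 TPM (log2 fold change 2.09, SE 0.23, unadjusted p = 0.0006, adjusted p = 0.373). Ccr8, a chemokine receptor of effector Tregs, was at 101 and 86.2 TPM against 26.8 and 49.4 TPM (1.33, SE 0.36), and Prdm1, which encodes Blimp-1, at 11.4 and 17.6 TPM against 5.3 and 6.6 TPM (1.13, SE 0.38). The 2 under WT were Klrg1, at 42.4 and 53.5 TPM against 102 and 82.0 TPM, and Pparg, at 0.2 and 0.3 TPM against 1.3 and 1.6 TPM, both named after their values were seen. Unlike Batf, Itgae and Ccr8 were higher in Chd8-/- 1 than in Chd8-/- 2. Since the list was drawn up with earlier results of these libraries known, its count is not independent evidence of a direction.

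Genes that respond to stimulation or handling are given because Jun belongs with them. Of 15 tested other immediate early genes, 4 lay above and 5 under WT in both libraries (14.8% and 27.8% of all genes), with a median of -0.21. Egr1 was between 197 and 212 TPM in all 4 libraries. Ppp1r15a was at 18.9 and 17.9 TPM against 4.9 and 14.3 TPM (log2 fold change 1.03, SE 0.55), and Ier3 at 2.5 and 1.0 TPM against 2.6 and 18.8 TPM (-1.67, SE 0.95). All 6 tested heat shock genes had a fold change above 0, compared with 5873 of all 15240 genes tested. Their median was 0.50, and 4 lay above WT in both libraries (14.8% of all genes). Hspa1a and Hspa1b, which are strongly induced by heat, were at 0.7 TPM or less in all libraries. The part of handling in the Jun values was not tested. Of the 8 genes of naive and activated T cells, Il7r was at 505 and 367 TPM against 150 and 127 TPM (1.64, SE 0.23), with 2 genes above and 4 under WT (14.8% and 27.8% of all genes) and a median of -0.41.

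**Figure D5:**
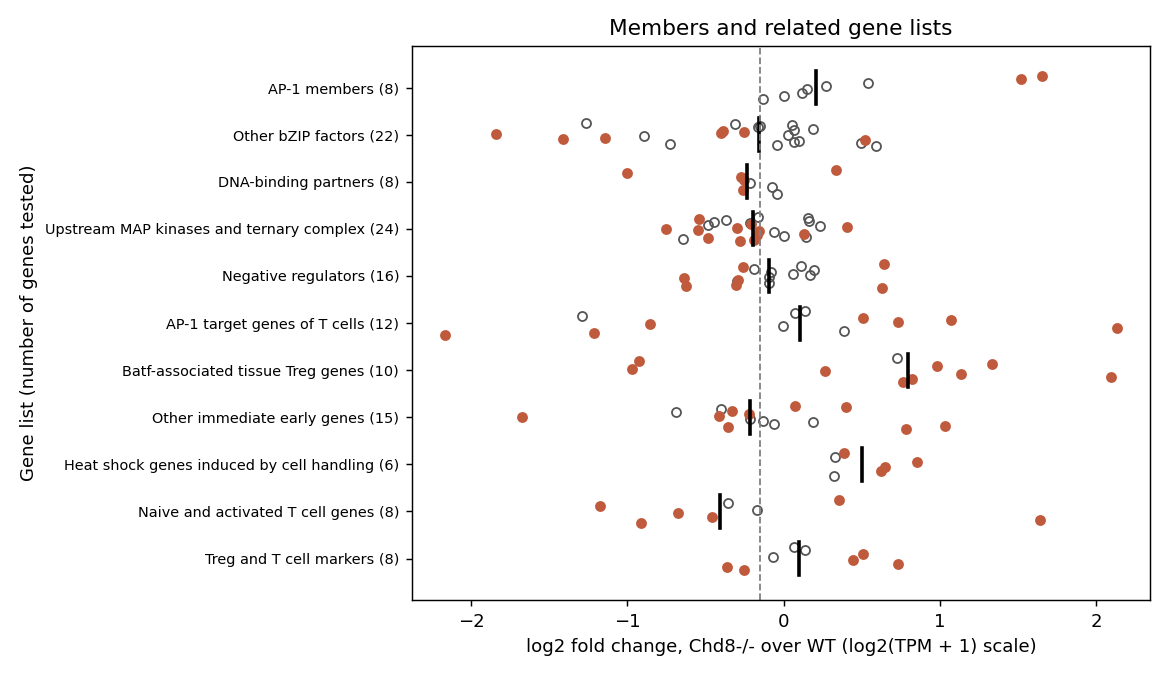
Log2 fold change (x axis, Chd8-/- over WT on the log2(TPM + 1) scale) of every tested gene of the members and of 10 related lists (y axis, number tested in brackets). Filled points have groups that do not overlap, black bars are list medians, and the dashed line is the median of all genes tested (-0.15). Jun and Batf are the filled points of the member row, and the Batf-associated row has the highest median at 0.79.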

How the data were processed

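The authors trimmed RNA-seq reads with Trim Galore 0.4.2 and cutadapt 1.9.1, aligned them to mm10 with STAR 2.6.1e, counted them per gene with featureCounts 1.6.2 and deposited TPM, rounded to 0.1 (versions per the submitters' processing notes). Whether strand was used is not given in the sources used here. Groups came from the sample labels. TPM were tested as log2(TPM + 1) with limma 3.58.1 (R 4.3.3; two-sided, eBayes with trend, Benjamini-Hochberg) over genes with at least 1 TPM in 2 or more libraries, WT against Chd8-/-, 2 libraries each. The test was checked on simulated data. Reads per gene were estimated from the steps that TPM takes in genes under 120 nt (98.7 to 99.6% of those values were whole within 0.15 reads). Intervals cover counting error only. Named genes were the 9 members, the genes of the other lists whose groups did not overlap and whose log2 fold change was at least 1 in size, any marker, and the nearest 3 profiles of Jun, Fos, Jund and Batf. Chd8, Fosl1, Batf2, Jdp2, Irf4, Egr1, Il2, Hspa1a, Hspa1b, Klrg1, Pparg and the dendritic cell genes were named outside this rule. Members and lists were chosen with earlier results of these data known. Promoters came from RefSeq (GRCm38.p6), in which all 9 members matched. ATAC-seq and ChIP-seq tables use another build and were not used here. Some genes that the naming rule covers are not reported here. Alternatives are in the closing section.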

Additional observations from a re-analysis of the deposited data

How the results depend on the processing

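With 2 libraries a genotype and no gene past the adjusted threshold, Fosb is limited by depth, Atf3 by depth and the spread between libraries, and the other members by that spread. Across 12 alternatives, the log2 fold change ranged from 1.20 to 1.84 for Batf and from 1.15 to 2.15 for Jun, and their adjusted p values in limma ranged from 0.204 to 0.971 and from 0.250 to 0.971. Where 1 library was left out, the lone library was assumed to vary like the others. Changes of sign among the other members were as follows. Fos was -0.0045 with a pseudocount of 0.1 TPM and -0.58 to 0.58 with 1 library left out. Atf3 was 0.20 after quantile normalization, 0.0187 with the median of all genes set to 0 and -0.79 to 0.53 with 1 library left out. Leaving out 1 library gave -0.38 to 0.67 for Junb, -0.39 to 0.63 for Jund, -0.28 to 0.82 for Fosl2 and -2.24 to 3.32 for Batf3, and the median of the members ranged from -0.39 without Chd8-/- 2 to 0.68 without WT 2. With 1 library left out, a genotype has a single value, which makes a gap between the groups easier to reach. The number of tested members whose remaining Chd8-/- values all lay above the remaining WT values was then 2 to 6, and under them 0 to 4. The number at -1 or less was 0 to 1. Over all genes, a pseudocount of 5 TPM left 362 genes at 1 or more and 690 at -1 or less, and a mean of at least 5 TPM left 1149 at -1 or less, since fewer genes were tested, with 2 genes at an adjusted p under 0.05, neither a member. Leaving out 1 library gave 989 to 1371 genes at 1 or more and 1446 to 3107 at -1 or less. The list median of negative regulators was 0.0567 with the median of all genes set to 0. With 1 library left out, list medians spanned 0 for AP-1 targets (-0.079 to 0.428), Treg and T cell (-0.0505 to 0.257), B cell (-0.45 to 1.59), myeloid (-2.09 to 0.93), CD8 and NK (-0.91 to 0.18) and erythroid markers (-5.52 to 2.26), in each case between leaving out Chd8-/- 1 and Chd8-/- 2. The causes were not tested. The libraries share only replicate numbers. Deviations of same-numbered libraries correlated at -0.01 across genes, and the replicate block gave 0 genes at an adjusted p under 0.05, 1336 genes at an unadjusted p under 0.05 against 1555 without it, and adjusted p = 0.552 for both Batf and Jun in limma. Alternatives for ATAC-seq were not run, since no annotation of that build was used here.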
